A study of Arabidopsis thaliana with 12 samples.

Results

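Jasmonates are made in the plastid and the peroxisome by a short chain of enzymes, and 10 genes that encode enzymes of that chain in *Arabidopsis thaliana* are described here. They are the lipoxygenase genes *LOX2* (AT3G45140), *LOX3* (AT1G17420) and *LOX4* (AT1G72520), the allene oxide synthase gene *AOS* (AT5G42650), the allene oxide cyclase genes *AOC1* (AT3G25760), *AOC2* (AT3G25770), *AOC3* (AT3G25780) and *AOC4* (AT1G13280), the reductase gene *OPR3* (AT2G06050), and *JAR1* (AT2G46370). They were chosen by gene ID, and all 10 were found among the 27655 genes of the deposited tables. The plants were wild type Col-0, and the tissue was the whole shoot of 14-day-old seedlings, about 300 of them pooled per replicate. Seedlings had grown with 0.3 µM boric acid (Bminus, low boron below), 30 µM (Ctrl) or 500 µM (Bplus, high boron below), and the groups differed in no other stated way. Each supply was measured by RNA-seq and by ribosome profiling, which sequences the mRNA pieces that ribosomes cover (footprints), with 2 libraries per supply and assay and 12 libraries in all.

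Lipoxygenases of the plastid add oxygen to linolenic acid, allene oxide synthase turns the product into an unstable epoxide, and allene oxide cyclase closes it to the ring compound oxophytodienoic acid. OPR3 reduces that ring in the peroxisome, and β-oxidation then shortens the side chain to give jasmonic acid. JAR1 joins jasmonic acid to isoleucine, which makes the form that the jasmonate receptor binds. Most genes of the chain are themselves known targets of jasmonate signalling, in leaves above all after wounding.

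RNA libraries held 7563365 to 9256564 counts and footprint libraries 6903881 to 24206655. Pairs of libraries of a group correlated at r = 0.983 to 0.993 over 17306 genes. The single gene counts of the 10 genes ran from 32 to 10063 in RNA libraries and from 81 to 42414 in footprint libraries, and all 10 passed the filter on low counts in both assays. The 5 root markers summed to 0.385 to 1.13 CPM (the count scaled to a common library size, after edgeR's TMM correction for composition) in RNA libraries, and the 4 shoot markers to at least 21635. The shoot markers, all photosynthesis genes, moved with boron supply. At low boron 4 of 4 fell in mRNA (21635 to 21703 CPM summed, 29273 to 30895 in Ctrl), where 13.8% of genes tested fell. At high boron 1 of 4 fell (23689 to 25004 CPM summed), where 4.55% of genes tested fell. Of 9 circadian clock genes tested in mRNA, 3 rose and 4 fell at low boron. Among all genes tested 19.5% rose and 13.8% fell there. At high boron 4 clock genes rose and 3 fell, where 1667 of the 18403 genes tested passed in either direction. The part of the shoot markers and of the clock genes in the results below was not tested. In whole shoots, fewer cells of a type and less RNA per cell cannot be told apart.

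Low boron raised the mRNA of most of the chain. Against Ctrl, 9 of the 10 genes rose (edgeR's quasi-likelihood test, Benjamini-Hochberg adjusted p under 0.05), where 19.5% of the 18403 genes tested rose. Both low boron libraries lay above both Ctrl libraries for 9 of the 10 genes, and for 36.4% of all genes tested. The median log2 change was 1.11 over the 10 genes and 0.02 over all genes tested. The 10 genes together took 0.184% and 0.207% of all RNA counts at low boron, against 0.0757% and 0.0864% in Ctrl and 0.0926% and 0.0855% at high boron.

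The mRNA of *LOX2*, *LOX3* and *LOX4* rose. *LOX2*, the lipoxygenase that makes most of the jasmonate precursor in wounded leaves, had mRNA levels of 1025 and 1199 CPM in the low boron libraries, 357 and 390.5 CPM in the Ctrl libraries, and 459.8 and 399 CPM in the high boron libraries. Both low boron libraries lay far above the other 4, and the change against Ctrl was 2.98-fold (log2 1.57 ± 0.10 SE, n = 2 per group, edgeR adjusted p = 3.45e-08). *LOX3*, whose enzyme is known from wounding and from flower fertility, stood at 43.1 and 46.4 CPM at low boron, 22.5 and 18.8 CPM in Ctrl, and 22.9 and 21.9 CPM at high boron. It rose 2.16-fold (log2 1.11 ± 0.12, edgeR adjusted p = 4.62e-06), and the Ctrl and high boron libraries overlapped. *LOX4*, the close relative of *LOX3*, stood at 25.6 and 21.7 CPM at low boron, 8.41 and 7.84 CPM in Ctrl, and 5.26 and 4.33 CPM at high boron. Its 3 groups did not overlap, and the rise at low boron was 2.91-fold (log2 1.54 ± 0.16, edgeR adjusted p = 5.16e-06).

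Allene oxide synthase rose less. *AOS*, the single gene for this step, had 137 and 149.7 CPM of mRNA at low boron, 78.0 and 107 CPM in Ctrl, and 116 and 115 CPM at high boron. Both low boron libraries were above all others, and the rise over Ctrl was 1.55-fold (log2 0.64 ± 0.11, edgeR adjusted p = 0.000585).

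The allene oxide cyclase genes spread the most. *AOC3* had 38.2 and 38.4 CPM of mRNA at low boron, 5.31 and 8.07 CPM in Ctrl, and 4.11 and 4.55 CPM at high boron. It rose 5.73-fold (log2 2.52 ± 0.17, edgeR adjusted p = 5.64e-08), above 99.3% of all genes tested, and either low boron library was 4.74 to 7.22 times either Ctrl library. *AOC2* stood at 310.3 and 344 CPM at low boron, 127 and 145 CPM in Ctrl, and 112 and 133 CPM at high boron. Its rise was 2.41-fold (log2 1.27 ± 0.10, edgeR adjusted p = 2.61e-07), with Ctrl and high boron overlapping. *AOC1* stood at 64.7 and 70.7 CPM at low boron, 25.8 and 44.6 CPM in Ctrl, and 37.6 and 41.7 CPM at high boron. Its rise of 1.93-fold (log2 0.95 ± 0.17, edgeR adjusted p = 0.000499) depended in size on the Ctrl libraries, being 0.60 on the log2 scale without Ctrl library 2 and 1.39 without Ctrl library 3. *AOC4* is the exception, with 40.2 and 36.9 CPM at low boron, 30.8 and 41.0 CPM in Ctrl, and 39.0 and 34.2 CPM at high boron. Its groups overlapped throughout, and its log2 change at low boron was 0.11 (95% interval -0.17 to 0.38, edgeR adjusted p = 0.58).

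Further along the chain, *OPR3* rose by a fold like that of *LOX3*, and *JAR1* by far less. *OPR3* had 97.0 and 101 CPM of mRNA at low boron, 42.6 and 49.0 CPM in Ctrl, and 36.8 and 37.4 CPM at high boron. The groups did not overlap, and the rise at low boron was 2.17-fold (log2 1.12 ± 0.09, edgeR adjusted p = 4.18e-07). *JAR1* had 75.4 and 74.4 CPM at low boron, 63.8 and 63.5 CPM in Ctrl, and 66.5 and 66.0 CPM at high boron. The libraries of a supply lay close together, and the rise at low boron was 1.18-fold (log2 0.23 ± 0.08, edgeR adjusted p = 0.0379). That call was lost in 9 of 14 alternatives, among them DESeq2 (adjusted p = 0.283), DESeq2 size factors within edgeR (0.0674), and the removal of low boron library 2 (0.177) or 3 (0.151), Ctrl library 2 (0.0851) or 3 (0.0969), or high boron library 2 (0.0581).

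**Figure D1:**
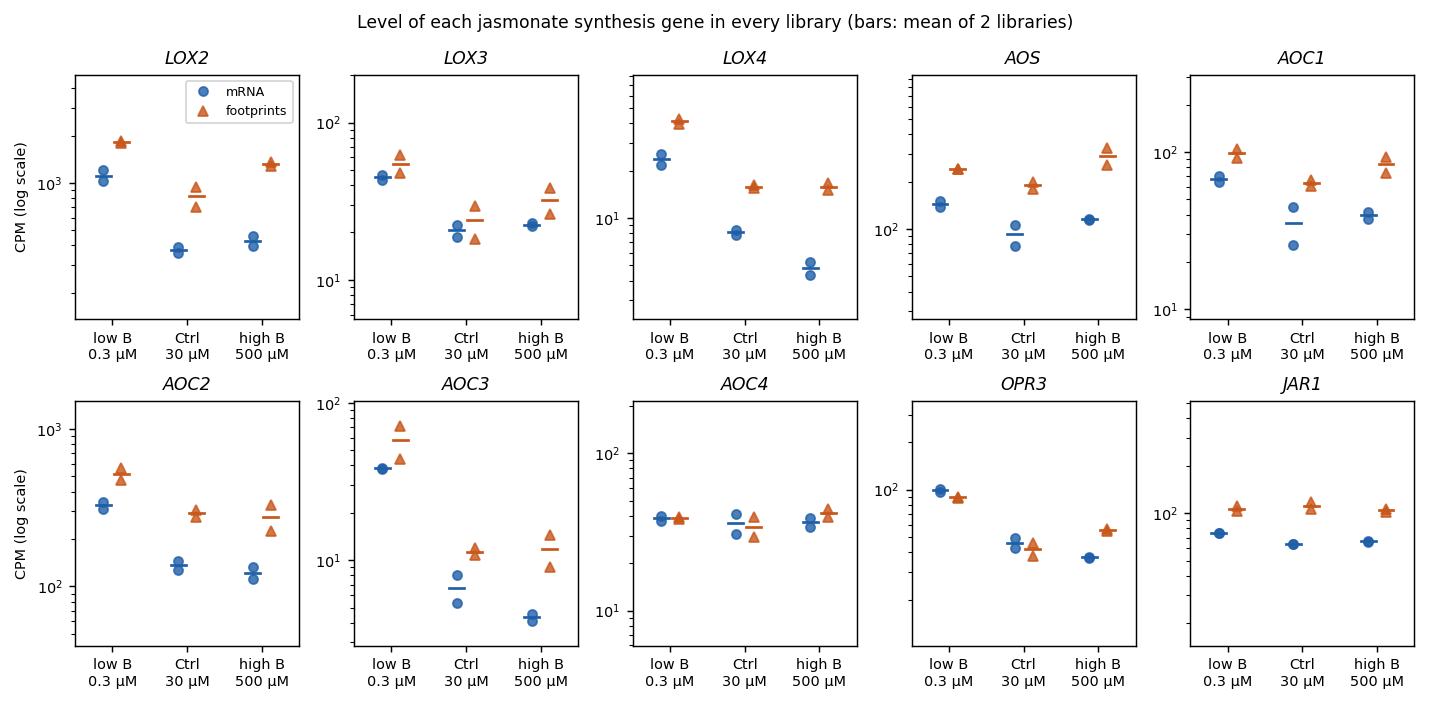
Level of each of the 10 genes in every library, in CPM on a log scale, by boron supply; circles are mRNA, triangles are footprints and bars are the mean of 2 libraries. *LOX2*, *LOX3*, *LOX4*, *AOC2*, *AOC3* and *OPR3* are highest at low boron in both assays, whereas the mRNA of *AOC4* overlaps between supplies and that of *JAR1* stays between 63.5 and 75.4 CPM.

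Footprints show which of these mRNAs ribosomes were reading. At low boron, 7 of the 10 genes rose in footprints, where 8.05% of the 17697 genes tested rose. The median log2 change was 0.96 over the 10 genes and 0.0011 over all genes tested. *AOS*, *AOC4* and *JAR1* did not pass the test.

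The lipoxygenases rose in footprints too. *LOX2* had 1787 and 1856 CPM of footprints at low boron, 706 and 935 CPM in Ctrl, and 1282 and 1351 CPM at high boron. Its 3 supplies did not overlap, and the rise at low boron was 2.22-fold (log2 1.15 ± 0.21, edgeR adjusted p = 0.00144). *LOX3* had 47.7 and 62.1 CPM at low boron, 18.2 and 29.6 CPM in Ctrl, and 26.3 and 38.1 CPM at high boron. Its rise was 2.32-fold (log2 1.21 ± 0.24, edgeR adjusted p = 0.00316), and without Ctrl library 2 the adjusted p was 0.067. *LOX4* had 39.9 and 42.9 CPM at low boron, 15.5 and 16.3 CPM in Ctrl, and 16.7 and 15.1 CPM at high boron. It rose 2.61-fold (log2 1.38 ± 0.18, edgeR adjusted p = 0.000127), with Ctrl and high boron overlapping.

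*AOS* footprints stood at 239 and 241 CPM at low boron, 200.04 and 179.7 CPM in Ctrl, and 257 and 328 CPM at high boron. The Ctrl libraries were the lowest and did not overlap with either treatment, but the log2 change at low boron was 0.34 with a 95% interval of -0.05 to 0.72 (edgeR adjusted p = 0.244). The next enzyme of the chain again held the largest rise of the 10 genes. *AOC3* footprints stood at 43.6 and 71.7 CPM at low boron, 10.7 and 11.9 CPM in Ctrl, and 9.11 and 14.4 CPM at high boron, and rose 5.10-fold at low boron (log2 2.35 ± 0.26, edgeR adjusted p = 2.79e-05). *AOC2* had 474 and 568 CPM at low boron, 308 and 275 CPM in Ctrl, and 226 and 327 CPM at high boron, with a log2 rise of 0.84 ± 0.21 (edgeR adjusted p = 0.0118). *AOC1* had 91.6 and 104 CPM at low boron, 66.7 and 61.0 CPM in Ctrl, and 74.1 and 92.9 CPM at high boron, with a log2 rise of 0.61 ± 0.18 (edgeR adjusted p = 0.0289). Both calls were sensitive to leaving out a library, while the size of the change held, at log2 0.71 to 0.96 for *AOC2* and 0.52 to 0.70 for *AOC1* over the alternatives. The call of *AOC2* was lost without low boron library 3 (adjusted p = 0.135), Ctrl library 2 (0.0532) or Ctrl library 3 (0.0725). That of *AOC1* was lost without low boron library 2 (0.0765) or 3 (0.255) and without Ctrl library 2 (0.0831) or 3 (0.107). *AOC4* had 38.0 and 39.2 CPM at low boron, 39.2 and 29.2 CPM in Ctrl, and 39.5 and 44.1 CPM at high boron, and its log2 change at low boron was 0.17 (95% interval -0.22 to 0.56).

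*OPR3* footprints stood at 90.4 and 88.1 CPM at low boron, 45.6 and 38.0 CPM in Ctrl, and 54.2 and 56.1 CPM at high boron. The groups did not overlap, and the rise at low boron was 2.13-fold (log2 1.09 ± 0.17, edgeR adjusted p = 0.000561). *JAR1* had 111 and 103 CPM at low boron, 106 and 117 CPM in Ctrl, and 102 and 106 CPM at high boron. Low boron overlapped with both other supplies, and its log2 change against Ctrl was -0.06 (95% interval -0.41 to 0.29). Both high boron libraries lay just below both Ctrl libraries (at most 105.94 CPM against at least 106.11).

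**Figure D2:**
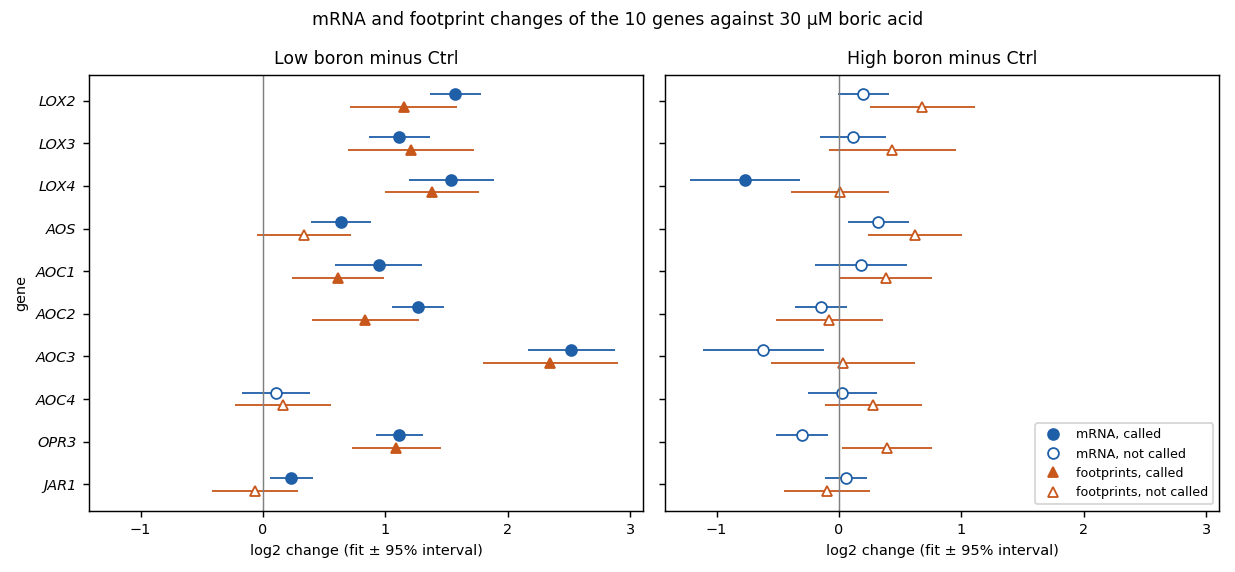
Log2 changes of the 10 genes at low boron and at high boron against Ctrl, in mRNA and in footprints, with 95% intervals from the edgeR fits; filled symbols passed the test and open symbols did not. At low boron the changes run from 0.11 (*AOC4*) to 2.52 (*AOC3*) in mRNA, and at high boron 1 mRNA change, that of *LOX4*, passed.

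At high boron few values of the chain passed the test against Ctrl. Both comparisons use the same Ctrl libraries, so each is given by its own values. In mRNA, 1 of the 10 genes passed the test against Ctrl, *LOX4*, which fell, where 4.55% of all genes tested fell. The median log2 change was 0.04 over the 10 genes and -0.0060 over all genes tested. The fall of *LOX4* was -0.77 ± 0.21 on the log2 scale (edgeR adjusted p = 0.0322) and rested on 40 and 41 reads at high boron against 68 and 76 in Ctrl. It was lost in 8 of 13 alternatives, with adjusted p-values from 0.0512 to 0.187, including DESeq2 (0.118), limma voom (0.0588) and the removal of any single library other than Ctrl library 3.

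The other mRNA values at high boron did not pass. Unadjusted edgeR p was under 0.05 for 4 of the 10 genes, *LOX4*, *OPR3*, *AOS* and *AOC3*. Both high boron libraries lay above both Ctrl libraries for *LOX2*, *AOS* and *JAR1*, and below them for *LOX4*, *AOC3* and *OPR3*. No share of all genes is set beside these. *OPR3* gave a log2 value of -0.30 (95% interval -0.51 to -0.09, edgeR adjusted p = 0.0728) and *AOC3* one of -0.62 (-1.11 to -0.12, 0.123), and both passed without Ctrl library 2 (adjusted p = 0.01995 and 0.0149). *AOS* gave 0.32 (0.07 to 0.57, edgeR adjusted p = 0.109) and *AOC1* 0.18 (-0.20 to 0.55, 0.62), and both passed as higher without Ctrl library 3 (0.000249 and 0.00151). The 2 Ctrl libraries differ for these genes, library 2 being the lower for *AOS*, *AOC1*, *AOC3* and *OPR3*. For *LOX2* the log2 value was 0.20 (-0.01 to 0.41), for *LOX3* 0.11 (-0.16 to 0.38), and for *AOC2* -0.15 (-0.36 to 0.07). *AOC4* and *JAR1* gave 0.03 (-0.25 to 0.31) and 0.06 (-0.12 to 0.23).

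In footprints at high boron, 0 of the 10 genes passed edgeR's test, where 1.98% of all genes tested passed in either direction. Unadjusted p was under 0.05 for 4 of the 10, DESeq2 called 2 and limma voom called 0. The 4 were *LOX2* (log2 0.68, 95% interval 0.25 to 1.11, edgeR adjusted p = 0.129), *AOS* (0.62, 0.24 to 1.01, 0.121), *OPR3* (0.39, 0.03 to 0.76, 0.389) and *AOC1* (0.38, 0.004 to 0.76, 0.434). Over all 10 genes, both high boron libraries lay above both Ctrl libraries in 5 (these 4 and *AOC4*), where 18.3% of all genes tested did so, and below them in 1 (*JAR1*), where 18% did so. DESeq2 called *LOX2* (adjusted p = 0.0135) and *AOS* (0.0351) higher. The median log2 value was 0.33 over the 10 genes and 0.01 over all genes tested. *LOX3* gave 0.44 (-0.09 to 0.96) and *AOC4* 0.28 (-0.12 to 0.67). Near 0 were *LOX4* (0.01, -0.39 to 0.41), *AOC3* (0.03, -0.55 to 0.62), *AOC2* (-0.08, -0.51 to 0.36) and *JAR1* (-0.10, -0.45 to 0.25).

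Set directly against low boron, high boron left 8 of the 10 genes lower in mRNA, where 23.1% of all genes tested were lower. *AOC3* differed the most among the 10 (log2 -3.14 ± 0.18, edgeR adjusted p = 5.88e-09), followed by *LOX4* (-2.31 ± 0.18, 1.38e-07). *OPR3* and *AOC2* (both -1.42), *LOX2* (-1.37), *LOX3* (-1.001) and *AOC1* (-0.77) were also lower, the call of *AOC1* being lost with DESeq2 (adjusted p = 0.0573). *AOS* was lower by the smallest margin (-0.32 ± 0.11, edgeR adjusted p = 0.0361), a call lost in 5 of 14 alternatives. *AOC4* (-0.08, 95% interval -0.36 to 0.20) and *JAR1* (-0.18, -0.35 to -0.003, edgeR adjusted p = 0.0961) did not pass.

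In footprints, 5 of the 10 genes were lower at high than at low boron, where 11.3% of all genes tested were lower. *AOC3* (log2 -2.32 ± 0.26, edgeR adjusted p = 1.19e-05) and *LOX4* (-1.38 ± 0.18, 5.6e-05) led, followed by *AOC2* (-0.92 ± 0.21, 0.00482), *LOX3* (-0.78 ± 0.24, 0.0282) and *OPR3* (-0.70 ± 0.17, 0.0079). The last 3 calls were lost when certain libraries were left out, with changes of the same direction throughout. *AOC2* lost its call when low boron library 3 was left out (adjusted p = 0.0597) or when high boron library 2 was (0.0512), and *LOX3* in the same cases (0.226 and 0.213). The log2 value over all alternatives lay between -1.23 and -0.67 for *AOC2* and between -1.08 and -0.52 for *LOX3*. *OPR3* lost its call without low boron library 2 (0.0683) or 3 (0.0575), at a nearly unaltered size of -0.74 to -0.67 over the alternatives. *LOX2* was -0.47 (95% interval -0.90 to -0.04, edgeR adjusted p = 0.119), which DESeq2 called lower (0.0458). *AOS* and *AOC4* had the opposite sign, at 0.28 (-0.10 to 0.67, edgeR adjusted p = 0.306) and 0.11 (-0.28 to 0.50, 0.728).

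Translation efficiency sets the footprints of a gene against its mRNA, and a difference in it is the footprint change minus the mRNA change (the assay by supply interaction in edgeR). At low boron against Ctrl, 0 of the 10 genes passed with edgeR, DESeq2 or limma voom, 0 had an unadjusted p under 0.05, and 0.0231% of the 17306 genes tested passed. The footprint change was the smaller one in 8 of 10 genes, with differences from -0.43 (*AOC2*) to 0.10 (*LOX3*) on the log2 scale and a median of -0.23, against -0.06 over all genes. Over the 10 genes, mRNA and footprint changes at low boron correlated at Pearson r = 0.963 and Spearman rho = 0.879, a description across genes that share libraries.

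At high boron against Ctrl, 0 of the 10 genes passed with any of the 3 tools, where 0.74% of all genes passed, and 3 had an unadjusted p under 0.05. These were *LOX4* (log2 0.78, edgeR adjusted p = 0.292), *OPR3* (0.69 ± 0.18, 0.119) and *LOX2* (0.48). Between high and low boron, the footprint change minus the mRNA change was above 0 in all 10 genes, at 0.14 to 0.93 on the log2 scale. Its median was 0.57 against 0.11 over all genes. Most of the changes were falls, and in absolute size the footprint change was the smaller one in 9 of 10 genes. The shares of all genes with this sign, and with the smaller footprint change here or at low boron, were not counted. *LOX2* was called (0.91 ± 0.22, 95% interval 0.44 to 1.37, edgeR adjusted p = 0.0485), where 0.347% of all genes were called higher. The call of *LOX2* was lost in 11 of 20 alternatives, with adjusted p-values from 0.0035 to 0.333 over the 20. *OPR3* (0.72 ± 0.18, edgeR adjusted p = 0.0503) and *LOX4* (0.93 ± 0.24, 0.0629) lay just past the threshold.

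Gene length does not enter the ratio itself when genes are compared, since both assays were counted over the same coding sequence. The rule for reads that fit several similar genes is unknown, so the ratios of *AOC1*, *AOC2* and *AOC3* are less certain. In every supply all 10 genes had more footprints per mRNA than the median gene, and in Ctrl 7 of them lay above the 90th percentile of the 17306 genes. *LOX2* stood highest in Ctrl, at 2.92 times the median gene (log2 1.55 ± 0.30 SD, from 2 libraries per assay). *AOC2* (log2 1.51), *AOS* (1.45), *LOX4* (1.38), *AOC1* (1.27), *JAR1* (1.22) and *AOC3* (1.17) followed, at distances within the SD of *LOX2* or close to it. *LOX3* (0.63), *AOC4* (0.34) and *OPR3* (0.28) were lower. *OPR3* was the gene whose ratio rested lowest in Ctrl and low boron (0.28 and 0.33), and it stood at 0.97 at high boron. In 9 of the 10 genes the ratio was highest at high boron, reaching 2.12 for *LOX4*, 2.01 for *LOX2*, 1.84 for *AOC3* and 1.74 for *AOS*, and for *JAR1* it was highest in Ctrl. Several of these steps over Ctrl lay within the SD, such as those of *AOC2* (1.51 to 1.57 ± 0.42), *AOC1* (1.27 ± 0.57 to 1.47) and *AOC4* (0.34 ± 0.42 to 0.59). All 10 genes share the libraries of a supply, and how many of all genes were highest at high boron was not counted.

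**Figure D3:**
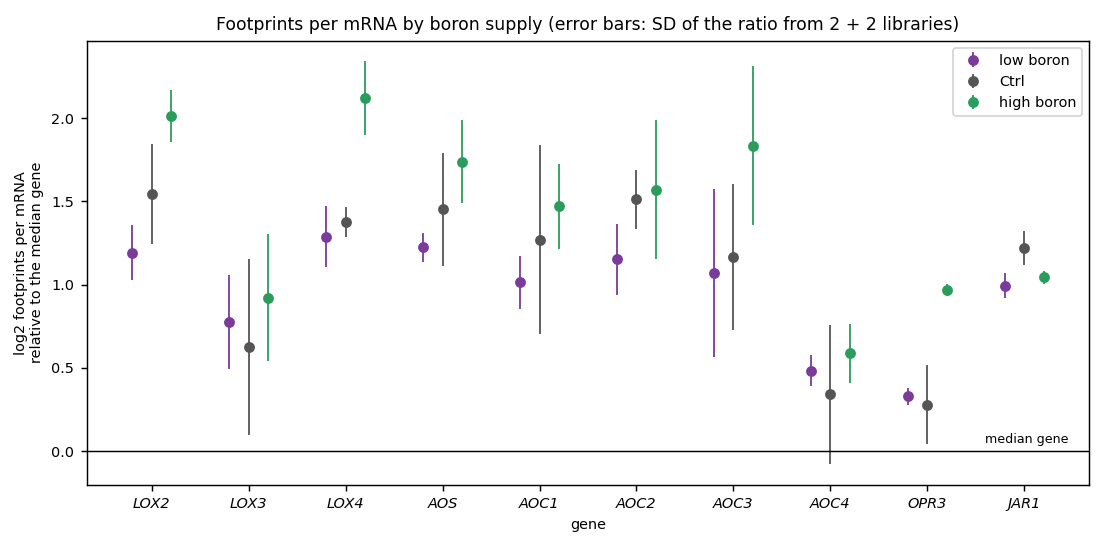
Log2 ratio of footprints to mRNA for each of the 10 genes at low boron, Ctrl and high boron, relative to the median of 17306 genes (line at 0); error bars are the SD of the ratio from 2 footprint and 2 RNA libraries. All points lie above the median gene, and 9 of the 10 genes have their highest point at high boron (*LOX4* at 2.12, for example), *JAR1* having it in Ctrl (1.22).

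The proportions of the 4 cyclase genes differed between supplies. *AOC1*, *AOC2* and *AOC3* lie next to each other on chromosome 3, at ranks 2733, 2734 and 2735 among the coding genes in RefSeq order, and *AOC4* lies on chromosome 1. The rule for reads that fit several of these similar genes is unknown, which makes the split between them uncertain. *AOC3* made up 7.83% and 8.43% of the summed cyclase mRNA counts at low boron, against 2.81% and 3.38% in Ctrl and 2.13% in both high boron libraries. *AOC4* held 7.54% to 8.86% at low boron, 16.3% to 17.2% in Ctrl and 16.0% to 20.3% at high boron. Shares of a sum are tied to each other, and the smaller share of *AOC4* at low boron goes with higher levels of the other 3 genes, its own mRNA level overlapping with Ctrl. *AOC2* supplied most of the counts in every library, with 68.4% to 70.2% of mRNA counts at low boron, 60.7% to 67.3% in Ctrl and 58.1% to 62.3% at high boron. In footprints its share overlapped between low boron (72.5% to 73.2%) and Ctrl (72.6% to 72.9%) and was 64.8% to 68.4% at high boron. *AOC1* held 14.3% to 14.4% of mRNA counts at low boron, 13.6% to 18.7% in Ctrl and 19.5% at high boron, and 13.3% to 14.2%, 15.7% to 16.2% and 19.4% to 21.3% of footprint counts. In footprints the share of *AOC3* was 6.74% to 9.16% at low boron, 2.52% to 3.15% in Ctrl and 2.61% to 3.01% at high boron, and that of *AOC4* 5.01% to 5.87%, 7.74% to 9.22% and 9.22% to 11.3%. For *AOC3* and *AOC4* in both assays the low boron libraries did not overlap with the other supplies. These shares carry no test of their own and hold no correction for gene length.

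**Figure D4:**
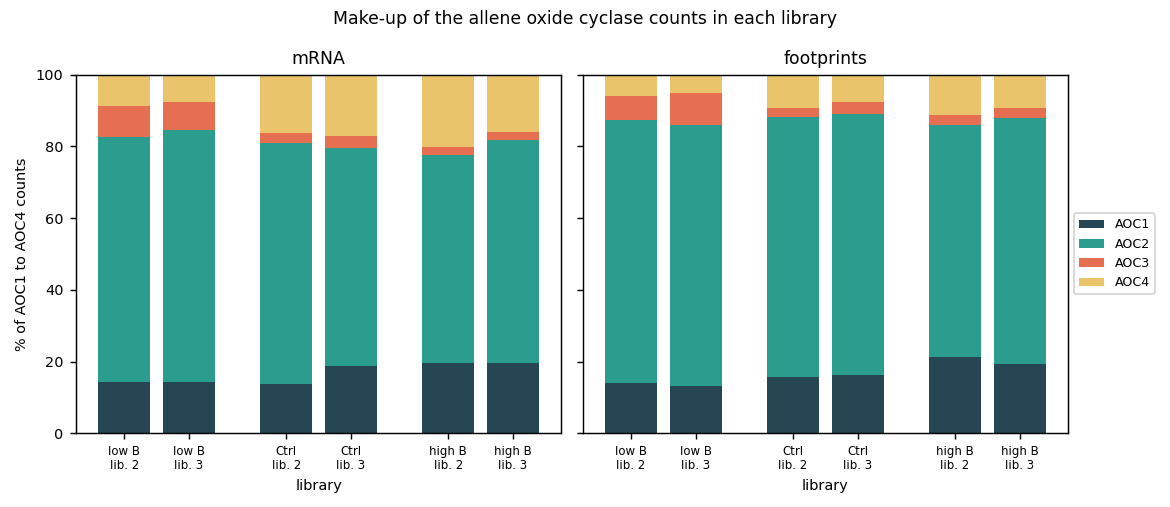
Share of each allene oxide cyclase gene in the summed counts of *AOC1* to *AOC4*, in percent, for every RNA library (left) and footprint library (right). The *AOC3* segment is widest in the low boron libraries (7.83% and 8.43% of mRNA counts), where the *AOC4* segment is narrowest.

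Of 10 desaturase and lipase genes that supply the chain with fatty acids, 8 could be tested in each assay. In mRNA at low boron 2 rose and 5 fell, where 19.5% of all genes tested rose and 13.8% fell. The median log2 change of the 8 was -0.41. In footprints at low boron 1 of the 8, AT1G02660, passed the test (log2 1.12 ± 0.20, edgeR adjusted p = 0.00165), as a rise, where 8.05% of all genes tested rose. The median log2 change was 0.06, and the 5 falls in mRNA had no called counterpart. Mean footprint CPM was lower at low boron than in Ctrl for *FAD6* (85.2 against 117) and *FAD8* (43.3 against 62.8). It was higher for *FAD2* (82.9 against 68.0), *FAD3* (33.6 against 31.6) and *FAD7* (95.7 against 93.6). In mRNA *FAD8*, a plastid desaturase that makes linolenic acid, fell by 0.65 ± 0.10 on the log2 scale (edgeR adjusted p = 0.000214). The 2 that rose have no symbol in the gene table used, AT1G02660 (0.92 ± 0.16, 0.000357) and AT3G62590 (0.73 ± 0.19, 0.00792), the latter not with DESeq2 (0.0864) or without low boron library 3 (0.0617). The lipase gene *DAD1* had 0 counts in every library, and *DGL* had 0 in the RNA libraries. At high boron 2 of the 8 fell in mRNA, where 4.55% of all genes tested fell. They were *FAD3*, the desaturase of the endoplasmic reticulum (-0.52 ± 0.09, edgeR adjusted p = 0.00198), and *FAD7*, a second plastid desaturase (-0.33 ± 0.08, 0.0207). The call of *FAD7* was lost in 5 alternatives, among them the removal of library 2 of Ctrl (adjusted p = 0.118), of high boron (0.139) or of low boron (0.062), or of library 3 of low boron (0.0614).

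Peroxisomal steps rose in part. Of 13 genes for precursor transport and β-oxidation, 7 rose and 1, the thiolase gene *KAT5*, fell in mRNA at low boron. Among all genes tested 19.5% rose and 13.8% fell. The median log2 change of the 13 was 0.36. The largest rises were those of *OPCL1*, whose ligase activates the reduced precursor (0.90 ± 0.12, edgeR adjusted p = 2.95e-05), and of the acyl-CoA oxidase genes *ACX1* (0.69 ± 0.09, 3.76e-05) and *ACX4* (0.68 ± 0.09, 2.74e-05). In footprints at low boron 2 of the 13 rose, *OPCL1* (0.90 ± 0.17, 0.00181) and *ACX1* (0.89 ± 0.18, 0.00338, but 0.0535 without Ctrl library 2). Among all genes tested 8.05% rose in footprints at low boron, and DESeq2 and limma voom each called 3 of the 13 higher there. At high boron 0 of the 13 passed in mRNA with edgeR, DESeq2 or limma voom, and 4 had an unadjusted edgeR p under 0.05. With edgeR 1667 of the 18403 genes tested passed. In footprints at high boron 0 of the 13 passed with any of the 3 tools, and 2 had an unadjusted edgeR p under 0.05. Among all genes tested 1.98% passed there with edgeR.

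Among 7 genes for other lipoxygenases and for enzymes that compete with or modify the products, 6 could be tested in mRNA. At low boron 3 of the 6 rose, where 19.5% of all genes tested rose. In footprints 5 could be tested, of which 1 rose at low boron and 1 at high boron. Among all genes tested in footprints, 8.05% rose at low boron and 1.98% passed in either direction at high boron. *LOX5*, a lipoxygenase outside the jasmonate chain, rose by 0.91 ± 0.18 on the log2 scale (edgeR adjusted p = 0.00103) in mRNA and by 1.34 ± 0.24 (0.0016) in footprints. *OPR1* rose in mRNA by 0.43 ± 0.11 (edgeR adjusted p = 0.0058, but 0.117 without low boron library 2). *LOX6*, another plastid lipoxygenase, rose by 0.27 ± 0.09 (0.0379), a call lost in 6 alternatives, with an adjusted p of 0.254 in DESeq2, 0.255 without low boron library 2, 0.0842 without library 3 and 0.191 without Ctrl library 2. At high boron 2 of the 6 rose and 1 fell in mRNA. Among the 18403 genes tested 4.55% fell, and 1667 passed in either direction. *OPR2* rose by 1.02 ± 0.14 (edgeR adjusted p = 0.000422) and *OPR1* by 0.72 ± 0.11 (0.000586). They encode reductases that are relatives of OPR3, and the genes neighbour each other, so the split of reads between them is uncertain. *LOX6* fell by 0.44 ± 0.10 (0.0099, but 0.116 without high boron library 2). In footprints at high boron *OPR2* rose by 0.84 ± 0.19 (edgeR adjusted p = 0.0282), a call lost in 5 alternatives with adjusted p-values from 0.0506 to 0.244.

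**Figure D5:**
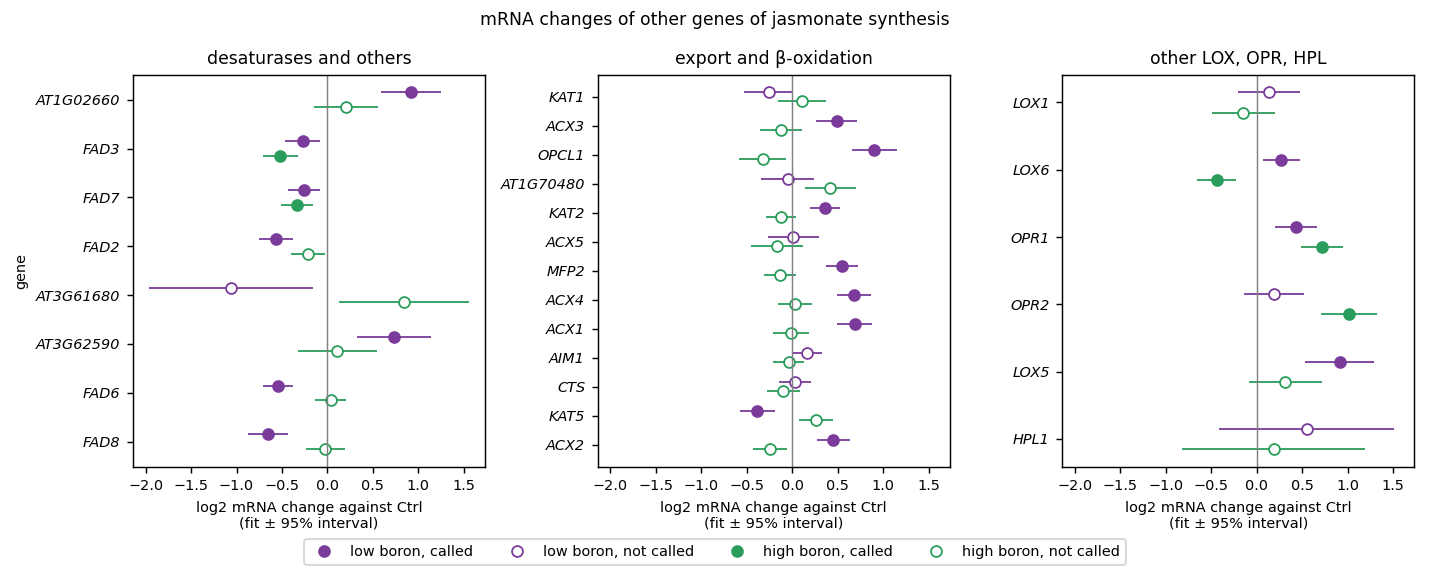
Log2 mRNA changes against Ctrl of other genes of jasmonate synthesis, with 95% intervals from the edgeR fit, at low and at high boron; filled symbols passed the test and open symbols did not. *OPCL1* (0.90), *ACX1* (0.69) and *LOX5* (0.91) are among the rises at low boron, and *OPR2* (1.02) and *OPR1* (0.72) are the rises at high boron.

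Within the chain, genes followed a common course to different degrees. The mean of the 10 genes' log2 CPM, centred within each assay, was taken as their pattern over the 12 libraries, and each gene, itself a part of that mean, was set against it. Pearson's r was 0.979 for *AOC3*, 0.977 for *OPR3*, 0.964 for *AOC2*, 0.953 for *LOX2*, 0.938 for *LOX4*, 0.918 for *LOX3* and 0.896 for *AOC1*, and it was 0.618 for *AOS*, 0.551 for *JAR1* and 0.354 for *AOC4*. Outside the chain, the 5 genes closest to the pattern were *ABS2* (r = 0.990), AT3G51450 (0.989), *p24beta2* (0.988), AT4G37530 (0.987) and *JAZ1* (0.986), the last of which encodes a repressor of jasmonate signalling. The libraries are those of 3 supplies, so these coefficients mostly rank how alike the steps between supplies are, and they carry no test.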

How the data were processed

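RNA-seq and ribosome profiling were done on the same kind of tissue in 3 boron supplies, 2 libraries per group. The authors deposited raw counts per coding sequence, 1 table per assay, and Bowtie2 and SAMtools appear in the submitters' processing notes. The sources used here give no versions, genome build, annotation, read filters or strand use, so no coordinates are given. Columns carry numbers 2 and 3 where the labels have 1 and 2, so columns were assigned to groups by name. Whether equal numbers mark a shared batch is not known, and they were not treated as pairs. The difference between library 3 and library 2 correlated between supplies at -0.012 to 0.088 in mRNA. In footprints it correlated at -0.0283 to 0.204, the highest value being that of low boron with Ctrl. Footprint library 2 held more counts than library 3 in every supply. The cause of this was not tested. The labels call the replicates biological, and p-values measure the spread between these pooled samples only.

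Counts were tested in R 4.3.3 with edgeR 4.0.16 (quasi-likelihood test) after TMM scaling and filterByExpr, all supplies of an assay in 1 fit, with Benjamini-Hochberg adjustment over all genes tested and a threshold of 0.05. Common biological coefficients of variation were 6.92% (mRNA), 14.9% (footprints) and 11.1% (both assays). SE is the absolute log2 change divided by the square root of F, and intervals are 95%. Scripts were tested on simulated data. Alternatives were DESeq2 1.42.0, its size factors in edgeR, limma 3.58.1 voom, no filter, a strict filter (mean of 50 counts in every group), no organelle genes, a replicate block, only the 2 supplies compared, and leaving out each library.

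Gene names, neighbours and chromosome ranks came from a RefSeq table of assembly TAIR10.1, in which all 10 genes matched. The 10 genes, the other lists, the markers and the tests were chosen with earlier results of these data known. All 10 genes are named, and of each other list up to 3 called genes with the largest change per comparison with Ctrl. *DAD1*, *DGL* and *KAT5* were named after their values were seen. The 5 most alike genes were taken among genes whose SD over the libraries was not small against that of the pattern.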

Additional observations from a re-analysis of the deposited data

Results flagged for a closer look

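The footprint change of *LOX2* minus its mRNA change between high and low boron was 0.906 on the log2 scale. The changes were -0.47 in footprints and -1.37 in mRNA. The interaction of assay and supply passed edgeR's test (adjusted p = 0.0485). It was listed because the effect of supply differed between the assays. The call was lost in 11 of 20 alternatives.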

How the results depend on the processing

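Of the 31 results of the 10 genes that passed the test, 20 kept their call and direction in every alternative run, and over 435 refits 48 calls were lost and 0 reversed. Of the 59 that did not pass, 14 refits of 993 gained a call. In mRNA at high boron against Ctrl, 1 gene was called; DESeq2, limma voom, the strict filter (*LOX4* and *AOC3* not tested) and the fit of only 2 supplies called 0, no filter called 2, and leaving out a library gave 0 to 3. In footprints, leaving out a library gave 4 to 7 genes at low boron (4 without Ctrl library 2) and 2 to 5 for high against low boron (2 without low boron library 3, 3 without high boron library 2). At high boron footprint calls were 2 with DESeq2 and 1 without a filter. For translation efficiency between high and low boron, calls were 0 with DESeq2 size factors or the strict filter, 2 with DESeq2 or only 2 supplies, and 0 to 2 without a library. With the replicate block 2 genes were called there, *LOX2* and *OPR3* (adjusted p = 0.0426), and the block changed no other count of called genes. The cause of these shifts was not tested.

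Signs that turned were all of changes that did not pass. For footprints at high boron, *LOX4* became -0.0054 with DESeq2 size factors, -0.0055 with DESeq2, -0.0046 with no filter and -0.0068 with only 2 supplies, and *AOC3* -0.024 with voom and -0.0014 with the block. For translation efficiency at low boron, *OPR3* became 0.0050 with DESeq2, 0.0055 with the strict filter and 0.00096 with only 2 supplies. Leaving out libraries turned signs in the following ranges (log2). In mRNA, *AOC4* ran from -0.089 to 0.33 at low boron, from -0.17 to 0.25 at high boron and from -0.15 to 0.016 between them; at high boron *AOC1* ran from -0.17 to 0.62 and *LOX3* from -0.0088 to 0.25. In footprints at low boron, *AOC4* ran from -0.013 to 0.41 and *JAR1* from -0.13 to 0.017. In footprints at high boron, *LOX4* ran from -0.070 to 0.047, *AOC3* from -0.33 to 0.36 and *AOC2* from -0.40 to 0.17, and between high and low boron *JAR1* ran from -0.093 to 0.017. For translation efficiency at low boron, *OPR3* ran from -0.14 to 0.12, *LOX3* from -0.23 to 0.47, *AOC1* from -0.78 to 0.010, *AOC3* from -0.56 to 0.15 and *AOC4* from -0.16 to 0.30. At high boron it ran from -0.24 to 0.55 for *AOC1*, from -0.24 to 0.31 for *AOC2* and from -0.030 to 0.67 for *LOX3*, which ran from -0.067 to 0.48 between high and low boron.

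Over all genes tested, calls ranged from 3731 to 6577 across alternatives for mRNA at low boron (6120 as reported), from 784 to 2226 at high boron (1667), from 922 to 3312 for footprints at low boron (2650) and from 131 to 668 at high boron (350). For high against low boron they ranged from 1869 to 4206 in footprints (3660) and from 106 to 369 in translation efficiency (274), which had 0 to 13 calls at low boron (4) and 36 to 209 at high boron (128). The 95% interval of the *AOS* footprint change at low boron (-0.05 to 0.72) holds both no change and the mRNA change of 0.64.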
